A study of Mus musculus with 11 samples.

Results

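The 8 genes described here separate the lines in which GFP reports Tbr2 (the protein of Eomes) from each other. They were picked for large differences between kiTbr2GFP and tgTbr2GFP cells outside the cell cycle and the synapse, so those differences are given as a description, without a test. The genes are Cwc22, Hfm1, Aim2, Gzma, Fam183b, Gdpd3, Cdr1os and AA388235, 8 of 16527 genes kept for analysis, read by 16 of 28858 probe sets on an Affymetrix Mouse Gene 1.0 ST array. For a gene with several probe sets, the probe set with the highest mean stood for it.

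RNA was amplified from GFP-positive cells sorted from the microdissected dentate gyrus of mice at postnatal day 35, with about 3000 to 5000 cells per group per the labels. In kiTbr2GFP mice (3 arrays) GFP was knocked into the Eomes locus, and in tgTbr2GFP mice (3 arrays) it was carried by an Eomes bacterial artificial chromosome (BAC) transgene. PomcGFP mice (2 arrays) carry a GFP transgene for pro-opiomelanocortin and NesGFP mice (3 arrays) one for Nestin. Slices of 750 µm held dorsal and ventral dentate gyrus, and each line is a model only of the cells in which its reporter is bright enough to sort. The age was the same in all 4 lines, and all of them carry a GFP reporter, so no group is without one. The labels used here name neither the strain of a line nor its transgene copy number, and line, strain background and copy number cannot be told apart. Whether each array stands for its own mice is not given either. The p-values weigh a difference between lines against how far arrays of a line differ. Sex-linked genes, given below, show that the tgTbr2GFP arrays did not all come from the same mice. In the other lines the spread between arrays may be technical.

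All values are log2 RMA values, the logarithm of a normalized probe signal. The 25th percentile of an array, between 5.90 and 6.20, is used below as a mark of a low value. The 10 pairs of arrays of the same line correlated at r of 0.939 to 0.985 across genes, and no pair held the same values. As a check of the labels, Eomes averaged 9.98 ± 0.08 on the kiTbr2GFP arrays, 10.18 ± 0.31 on the tgTbr2GFP arrays, 7.52 ± 0.23 on the PomcGFP arrays and 8.80 ± 0.38 on the NesGFP arrays (mean ± SD, here and below wherever SE is not named, with n = 2 for PomcGFP and n = 3 for each other line). Both Tbr2 lines thus stood above the other lines in the gene that marks them, and they did not pass a test against each other in it (kiTbr2GFP minus tgTbr2GFP -0.21 ± 0.20 (SE), limma adjusted p = 0.953). Of the defining markers, Nes and Gfap were highest in NesGFP and Calb1 in PomcGFP, while the Tbr2 lines differed by 0.12 in Prox1 of granule cells and by 0.02 in Neurod1 of their progenitors. Dcx of granule neurons was instead highest in kiTbr2GFP (11.23 to 11.36, against 10.88 to 11.07 in tgTbr2GFP and 10.76 to 10.82 in PomcGFP). Calb1 was also higher in NesGFP (9.06 ± 0.25) than in either Tbr2 line. Other stage markers lay farther apart: Neurod4, a progenitor transcription factor, averaged 8.59 ± 0.24 on the kiTbr2GFP and 7.44 ± 0.19 on the tgTbr2GFP arrays (limma adjusted p = 0.1), and Calb1, a calcium buffer of mature granule cells, 7.30 ± 0.48 and 8.38 ± 0.34 on arrays of kiTbr2GFP and of tgTbr2GFP (limma adjusted p = 0.0562). Arrays of the 2 lines did not overlap in either gene, although neither passed the test, so the sorted cells of these lines are not shown to be matched in stage.

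As background, the dentate gyrus keeps forming granule neurons after birth, from radial stem cells through progenitors that express Tbr2 to immature neurons. The 8 genes belong to no common pathway and lie on 8 chromosomes: Aim2 on chromosome 1, Cwc22 on 2, Hfm1 on 5, Gdpd3 on 7, Fam183b on 11, Gzma on 13, AA388235 on 17 and Cdr1os on X. Cwc22 is a spliceosome protein that brings Eif4a3 to the exon junction complex, and it lies in a segment whose copy number is known to vary between mouse strains. Hfm1 is a DNA helicase of meiotic crossing over, Aim2 a sensor of DNA in the cytosol that assembles an inflammasome, and Gzma a serine protease of cytotoxic lymphocytes. Fam183b is associated with motile cilia in the mouse, Gdpd3 is a lysophospholipase D, Cdr1os is the transcript from which the circular RNA Cdr1as is made, and AA388235 is a long noncoding RNA in RefSeq to which no role is given here.

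For the Gzma and Fam183b genes the promoter sequences are shown as examples, Gzma of the genes highest in kiTbr2GFP and Fam183b of those highest in tgTbr2GFP. The windows run from 250 bases before to 50 bases after the start of the gene and are from RefSeq (GRCm38.p6), with the Gzma window at chr13:113100932-113101231 and the Fam183b window at chr11:58801911-58802210, both on the minus strand and written 5′ to 3′. Capitals mark the T-box core AGGTGT in either orientation, the kind of short sequence that T-box factors such as Tbr2 bind.
Gzma: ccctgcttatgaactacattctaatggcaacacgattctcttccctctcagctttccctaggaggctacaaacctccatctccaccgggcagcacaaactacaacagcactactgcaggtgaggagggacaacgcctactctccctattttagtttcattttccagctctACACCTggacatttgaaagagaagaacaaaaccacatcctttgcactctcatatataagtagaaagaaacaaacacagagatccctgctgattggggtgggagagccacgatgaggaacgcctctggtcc
Fam183b: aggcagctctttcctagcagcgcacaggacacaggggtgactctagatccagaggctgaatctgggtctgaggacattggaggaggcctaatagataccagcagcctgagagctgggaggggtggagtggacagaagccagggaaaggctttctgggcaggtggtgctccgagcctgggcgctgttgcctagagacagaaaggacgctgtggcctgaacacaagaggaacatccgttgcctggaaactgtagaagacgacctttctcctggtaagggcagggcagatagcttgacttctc
The T-box core lay 80 bases before the start of Gzma, in the reverse orientation, and none was in the Fam183b window. All 8 genes had a promoter in the table, and 1 of them held the T-box core, against 13.7% of 32851 promoters. That gene was Gzma, while Cwc22, Hfm1 and Aim2, which were also highest in kiTbr2GFP, held none. The E-box CAGATG, read on both strands, was in 0 of the 8 windows and in 17.2% of all promoters, so no overlap of the motifs arose. A match describes letters only, and binding was not measured.

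In kiTbr2GFP minus tgTbr2GFP, 5 of the 8 genes were higher in kiTbr2GFP and 3 were lower. By absolute difference they ranked from 1 (Fam183b) to 19 (Gzma) among the 16527 genes, with 11 genes outside the group between them. Just inside the range, Gzma differed by 1.65, and just outside, Uty, a gene of the Y chromosome, by 1.64. Eif2s3y, also of the Y chromosome, ranked 4 with a difference of 2.32. Over all genes 185 passed limma's test in this comparison, which is 1.12% of those tested (0.436% higher and 0.684% lower in kiTbr2GFP; without kiTbr2GFP array 3 the split turned, with 41 genes higher and 28 lower), and the middle 90% of differences lay between -0.41 and 0.30. All 8 genes passed the filter on low values, which asked for 2 arrays above the 25th percentile, but Gzma passed through the kiTbr2GFP arrays alone and Hfm1 through kiTbr2GFP and PomcGFP.

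**Figure D1:**
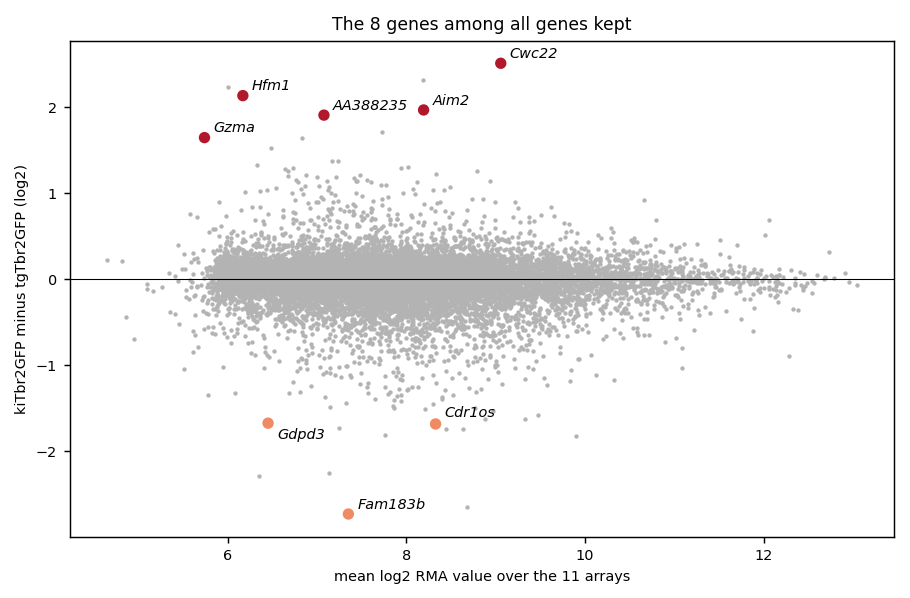
Difference between kiTbr2GFP and tgTbr2GFP (log2, vertical axis) against the mean log2 RMA value over the 11 arrays (horizontal axis) for each of 16527 genes (grey), with the 8 genes in colour (dark red: higher in kiTbr2GFP, orange: lower). Chosen for large differences, the 8 genes lie at the edges of the cloud over a wide range of levels. They run from 2.51 for Cwc22 to -2.73 for Fam183b.

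The levels in PomcGFP and NesGFP, which the choice of genes did not use, show which Tbr2 line lay outside the range of the others for a gene. Cwc22, Hfm1, Aim2 and Gzma were higher on every kiTbr2GFP array than on any of the 8 other arrays, a pattern met by 2.67% of all genes. Fam183b and Gdpd3 were higher on every tgTbr2GFP array than on any other array (0.914% of all genes), and AA388235 was lower on every tgTbr2GFP array (0.823% of all genes). Of the 8 genes only Cdr1os had neither Tbr2 line outside the range of the other lines. The genes were chosen on a contrast that holds the same Tbr2 arrays, so these shares are background figures and nothing is read from them about the group.

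**Figure D2:**
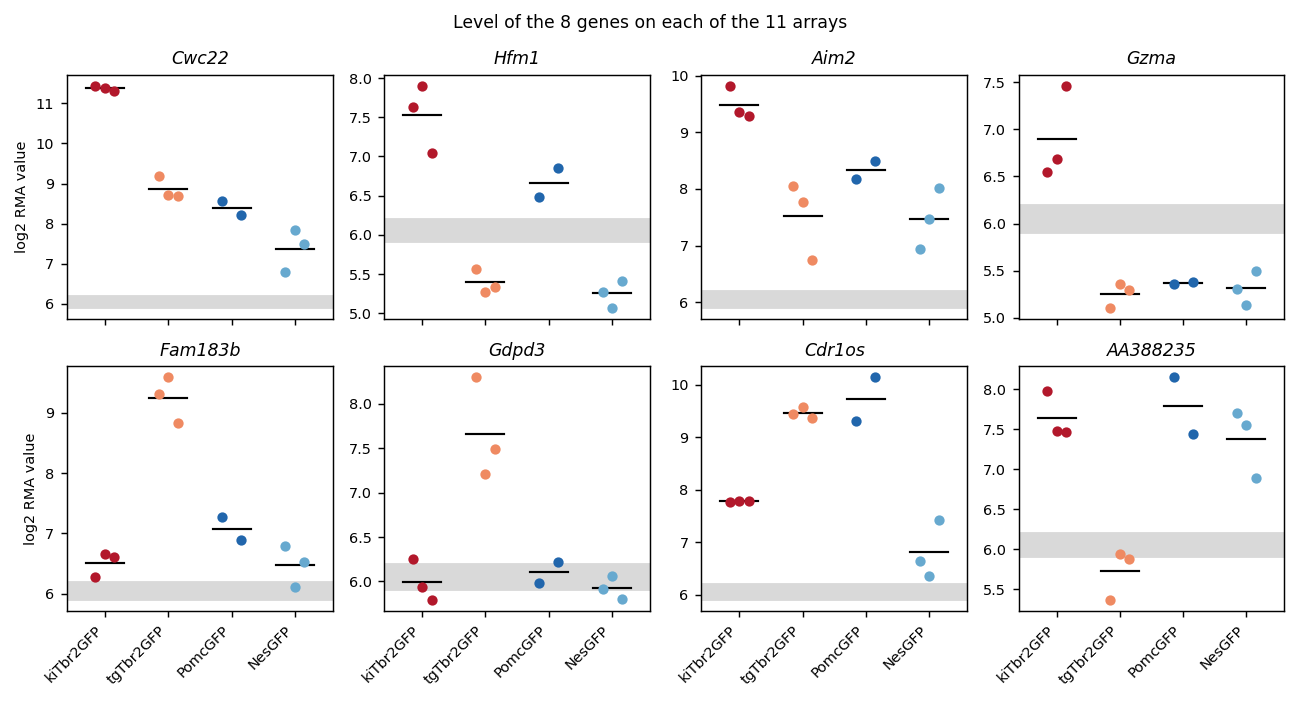
Log2 RMA value (vertical axes, a separate scale for each gene) of the 8 genes on each of the 11 arrays, by line, with a bar at the mean of each line; the grey band spans the 25th percentiles of the arrays (5.90 to 6.20). Cwc22, Hfm1, Aim2 and Gzma are highest in kiTbr2GFP, Fam183b and Gdpd3 in tgTbr2GFP, AA388235 is lowest in tgTbr2GFP, and Cdr1os is high in tgTbr2GFP and PomcGFP.

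Cwc22 stood far above the other lines in kiTbr2GFP. It read 11.44, 11.37 and 11.32 on the kiTbr2GFP arrays and 9.19, 8.71 and 8.69 on the tgTbr2GFP arrays. On the PomcGFP arrays it read 8.57 and 8.23, and on the NesGFP arrays 6.78, 7.83 and 7.49. The 3 kiTbr2GFP arrays lay close together and at least 2.12 above every other array, and the NesGFP arrays were the lowest. The difference between kiTbr2GFP and tgTbr2GFP was 2.51 ± 0.23 (SE), or 5.70-fold.

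The array holds 8 probe sets for Cwc22, and 7 of them had the same value on every array. Of the 19938 genes with a probe set of their own, 44 had probe sets with equal values, and Cwc22 was the only gene with as many as 7. The remaining Cwc22 probe set averaged 10.16 ± 0.17 in kiTbr2GFP, 8.68 ± 0.23 in tgTbr2GFP, 8.27 ± 0.02 in PomcGFP and 7.52 ± 0.15 in NesGFP. Both readings put kiTbr2GFP above all other arrays, while the difference from tgTbr2GFP was 2.51 in the repeated reading and 1.48 in the single one. Copy number was not measured, and its part in the result was not tested.

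**Figure D3:**
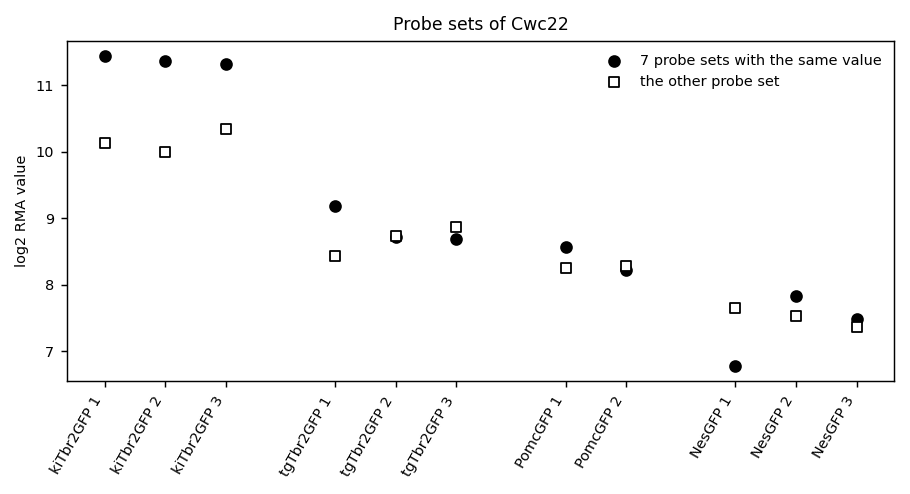
Log2 RMA value (vertical axis) of the Cwc22 probe sets on each of the 11 arrays, grouped by line along the horizontal axis; filled circles stand for the 7 probe sets that share a value and open squares for the other one. Both symbols are highest on the 3 kiTbr2GFP arrays, and the difference from tgTbr2GFP is 2.51 for the circles and 1.48 for the squares.

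Hfm1 read 7.63, 7.90 and 7.05 on the kiTbr2GFP arrays and 5.57, 5.27 and 5.34 on the tgTbr2GFP arrays. The PomcGFP arrays held 6.48 and 6.85, and the NesGFP arrays 5.28, 5.07 and 5.42. Levels in tgTbr2GFP and NesGFP were thus similar and below the 25th percentile of their arrays, and PomcGFP lay between them and kiTbr2GFP, 0.20 below the lowest kiTbr2GFP array at its nearest. A second Hfm1 probe set gave the same order, with means of 7.35 ± 0.33 in kiTbr2GFP, 5.15 ± 0.07 in tgTbr2GFP, 6.78 ± 0.06 in PomcGFP and 4.68 ± 0.05 in NesGFP. The kiTbr2GFP minus tgTbr2GFP difference was 2.14 ± 0.20 (SE), and since tgTbr2GFP was at low values its size is imprecise.

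Aim2 was measured at 9.82, 9.36 and 9.28 in kiTbr2GFP and 8.05, 7.77 and 6.74 in tgTbr2GFP. In PomcGFP it was at 8.17 and 8.50, and in NesGFP at 6.94, 7.46 and 8.02. The kiTbr2GFP arrays stood 0.78 above the highest other array, whereas the remaining lines were spread widely, tgTbr2GFP and NesGFP over more than PomcGFP. The difference between the Tbr2 lines was 1.97 ± 0.34 (SE), and without the third tgTbr2GFP array, the lowest, it was 1.58.

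Gzma was low outside kiTbr2GFP. Its values were 6.55, 6.69 and 7.46 on the kiTbr2GFP arrays against 5.11, 5.36 and 5.29 in tgTbr2GFP. The PomcGFP arrays read 5.36 and 5.38 and the NesGFP arrays 5.30, 5.13 and 5.50, so that the 8 arrays of these 3 lines shared a narrow range below the 25th percentile. The kiTbr2GFP minus tgTbr2GFP difference was 1.65 ± 0.21 (SE), and 1.37 without the third kiTbr2GFP array.

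Because Gzma marks T and NK cells, other genes of those cells were read beside it. Of 16 measured T and NK cell genes 0 passed in kiTbr2GFP minus tgTbr2GFP by limma's test, and 2 had an unadjusted p under 0.05; the list has a median difference of 0.06, against 0.02 over all genes. Averaged over the list, the arrays lay between 6.79 and 7.06 in kiTbr2GFP and between 6.75 and 6.86 in tgTbr2GFP. Cd3e of the T cell receptor complex averaged 7.28 ± 0.18 in kiTbr2GFP and 7.25 ± 0.11 in tgTbr2GFP. Prf1, the perforin that is released with granzymes, averaged 7.25 ± 0.11 in kiTbr2GFP and 7.19 ± 0.04 in tgTbr2GFP. Nkg7, a granule membrane protein, averaged 6.60 ± 0.21 in kiTbr2GFP and 6.18 ± 0.07 in tgTbr2GFP, a difference that did not pass (limma adjusted p = 0.173). The probe set of Cd3d was above the 25th percentile on 1 array and was left out by the filter. In bulk samples such as these, fewer cells of a type and less RNA per cell cannot be told apart.

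Fam183b had the largest difference between the Tbr2 lines among the 16527 genes kept. It read 6.28, 6.65 and 6.61 in kiTbr2GFP and 9.31, 9.58 and 8.83 in tgTbr2GFP. In PomcGFP the values were 7.27 and 6.89, and in NesGFP 6.80, 6.11 and 6.53. The kiTbr2GFP and NesGFP ranges overlapped, and every tgTbr2GFP array was at least 1.56 above any other array. The kiTbr2GFP minus tgTbr2GFP difference was -2.73 ± 0.22 (SE).

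Other genes of motile cilia and ependymal cells were read beside Fam183b. Of 25 measured genes 0 passed in kiTbr2GFP minus tgTbr2GFP by limma's test, 2 had an unadjusted p under 0.05, and the median difference was -0.03. The lowest of them was Ttr, the thyroxine carrier of the choroid plexus, at -1.73 and the next Rsph9 at -0.65, both named after their values were seen. Averaged over the list, the arrays lay between 6.67 and 6.83 in kiTbr2GFP and between 6.86 and 6.98 in tgTbr2GFP, and the part of these markers in the Fam183b result was not tested. Foxj1, the transcription factor that switches on motile cilium genes, averaged 6.60 ± 0.21 in kiTbr2GFP and 6.58 ± 0.07 in tgTbr2GFP. Tmem212, an ependymal marker, averaged 6.59 ± 0.05 in kiTbr2GFP and 6.64 ± 0.03 in tgTbr2GFP. Rsph1, a radial spoke protein, averaged 6.49 ± 0.06 in kiTbr2GFP and 6.81 ± 0.21 in tgTbr2GFP (limma adjusted p = 0.362).

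Gdpd3 read 6.25, 5.93 and 5.80 in kiTbr2GFP and 8.29, 7.21 and 7.49 in tgTbr2GFP. The PomcGFP arrays held 5.99 and 6.22 and the NesGFP arrays 5.91, 6.06 and 5.81. Levels in kiTbr2GFP, PomcGFP and NesGFP overlapped around the 25th percentile, and the tgTbr2GFP arrays lay 0.95 or more above them. The difference between the Tbr2 lines was -1.67 ± 0.24 (SE), and -1.36 without the first tgTbr2GFP array, the highest. Of 18 measured genes of glycerophosphodiester and N-acylethanolamine metabolism 0 passed in this comparison (limma), with 5 at an unadjusted p under 0.05, a median difference of -0.11 and a range of -0.55 to 0.25.

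AA388235 read 7.97, 7.48 and 7.47 in kiTbr2GFP and 5.37, 5.94 and 5.88 in tgTbr2GFP. It was at 8.14 and 7.44 in PomcGFP and at 7.71, 7.55 and 6.89 in NesGFP. The ranges of kiTbr2GFP, PomcGFP and NesGFP overlapped, and all 3 tgTbr2GFP arrays were 0.94 or more below them and under the 25th percentile. The difference was 1.91 ± 0.26 (SE) for kiTbr2GFP minus tgTbr2GFP.

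Cdr1os showed a different order of the lines. It read 7.77, 7.79 and 7.79 in kiTbr2GFP and 9.44, 9.58 and 9.37 in tgTbr2GFP. On the PomcGFP arrays it stood at 9.30 and 10.14 and on the NesGFP arrays at 6.64, 6.35 and 7.42. The tgTbr2GFP values lay inside the PomcGFP range, while kiTbr2GFP lay between these lines and NesGFP. The kiTbr2GFP minus tgTbr2GFP difference was -1.68 ± 0.26 (SE).

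Cdr1as, the circular RNA of this locus, is known for its many binding sites for miR-7. The mature miR-7 sequences from RefSeq (GRCm38.p6) are shown with the seed, bases 2 to 8, in capitals, since the seed is the part that pairs with such sites and is the same in both. The copy of miR-7a in Mir7-2 lies at chr7:78888295-78888317 and that of miR-7b in Mir7b at chr17:56243017-56243040, both on the plus strand.
mmu-miR-7a-5p: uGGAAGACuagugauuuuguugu
mmu-miR-7b-5p: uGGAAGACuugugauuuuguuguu
The probe set of Mir7-2, a gene of miR-7a, averaged 7.56 ± 0.09 in kiTbr2GFP, 7.67 ± 0.21 in tgTbr2GFP, 7.53 ± 0.13 in PomcGFP and 7.35 ± 0.06 in NesGFP. Mir7b spread from 7.34 to 8.35 in kiTbr2GFP, from 7.60 to 8.37 in tgTbr2GFP, from 7.40 to 7.61 in PomcGFP and from 6.06 to 8.34 in NesGFP, so that the lines overlapped. Mir7-1 was below the 25th percentile on all 11 arrays. Of the 7 measured genes of the Cdr1 locus and miR-7 list 0 passed in kiTbr2GFP minus tgTbr2GFP (limma), with 1 at an unadjusted p under 0.05 and a median difference of -0.11. Whether the probe sets read mature miRNA, or circular rather than linear RNA, was not tested.

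Cdr1os lies on the X chromosome, and the arrays differed in sex-linked genes. Xist, the RNA of the inactive X chromosome, read 10.45, 10.29 and 10.32 in kiTbr2GFP and 6.40, 11.44 and 11.27 in tgTbr2GFP. Eif2s3y, a gene of the Y chromosome, read 9.81, 9.49 and 9.41 in kiTbr2GFP and 9.76, 3.75 and 8.24 in tgTbr2GFP. The tgTbr2GFP arrays thus differed widely among themselves in both genes. The first was low in Xist and the second low in Eif2s3y, so these arrays did not come from the same mice. Xist read 11.08 and 10.88 in PomcGFP and 8.28, 8.80 and 8.26 in NesGFP, higher on both PomcGFP arrays as Cdr1os was (difference 2.53 ± 1.11 (SE), limma adjusted p = 0.0934). The part of sex in the results of Cdr1os and of the other genes of the group was not tested. Of 7 measured sex-linked genes 0 passed in kiTbr2GFP minus tgTbr2GFP (limma), with 2 at an unadjusted p under 0.05 and a median difference of 0.65.

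PomcGFP against NesGFP is the contrast that used neither Tbr2 line, and it was tested. All 8 differences were positive, with a median of 0.73 against 0.005 over all genes, and 3 of the 8 passed, each higher in PomcGFP. Gzma lay below the mark of a low value on every array of both lines. Its difference of 0.06 changed sign with cyclic loess (-0.091), so its sign cannot be read. Gdpd3 lay around that mark in both lines, and its difference of 0.17 was smaller than its SE of 0.26. The shared sign is therefore not read as a pattern of the group. Over all genes 6591 passed, which is 39.9% of those tested (15.9% higher and 24.0% lower), so 3 of 8 is near the background. Arrays of these lines did not overlap in 5 of the 8 genes, against 58.9% of all genes.

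Cdr1os was higher in PomcGFP by 2.92 ± 0.29 (SE; limma adjusted p = 1.62e-05), with both PomcGFP arrays above all 3 NesGFP arrays. Hfm1 was higher by 1.41 ± 0.23 (SE; limma adjusted p = 0.000476), from a NesGFP level below the 25th percentile. Cwc22 was higher by 1.03 ± 0.26 (SE; limma adjusted p = 0.00891), and this call ended in a fit of PomcGFP and NesGFP alone (limma adjusted p = 0.0595) and without the first PomcGFP array (limma adjusted p = 0.0869).

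The other 5 genes did not pass. Aim2 differed by 0.86 ± 0.37 (SE; limma adjusted p = 0.0915) and passed without the third NesGFP array (1.13, limma adjusted p = 0.0282), without the third tgTbr2GFP array (limma adjusted p = 0.0362) and after cyclic loess (1.11, limma adjusted p = 0.0496). Fam183b differed by 0.60 ± 0.25 (SE; limma adjusted p = 0.0752) and passed without the first NesGFP array (limma adjusted p = 0.0372) and with each array centred on its median (limma adjusted p = 0.0436). AA388235 differed by 0.41 ± 0.29 (SE; limma adjusted p = 0.278), Gdpd3 by 0.17 ± 0.26 (SE; limma adjusted p = 0.63) and Gzma by 0.06 ± 0.23 (SE; limma adjusted p = 0.86). Leaving out PomcGFP array 1 or 2 gave 0.06 and 0.76 for AA388235, and 0.29 and 0.06 for Gdpd3, in that order of arrays, and AA388235 was at 0.17 without NesGFP array 3; none of these passed. With 2 PomcGFP arrays, a p that misses the threshold does not show that these levels were the same.

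**Figure D4:**
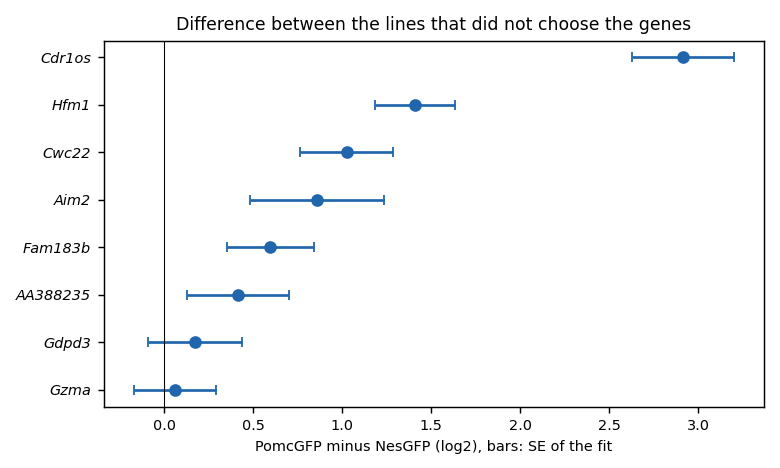
PomcGFP minus NesGFP difference (log2, horizontal axis) of the 8 genes, with the SE of the limma fit as bars (2 PomcGFP and 3 NesGFP arrays). Cdr1os lies farthest to the right at 2.92, Hfm1 and Cwc22 follow at 1.41 and 1.03, and Gzma and Gdpd3 lie within an SE of 0.

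Other genes of the pathways of the 8 genes were compared between PomcGFP and NesGFP in the same fit (limma, median over all genes 0.005). Over all genes 15.9% were higher and 24.0% lower. Several counts below lie near or under these shares, and genes are named as a description. Of 21 measured splicing and exon junction genes 3 were higher and 10 lower in PomcGFP (median -0.37), with Upf2 and Smg1 of nonsense-mediated decay at 2.34 and 2.16 and Syf2 and Eif4a3, the partner of Cwc22, at -1.95 and -1.20. Of 11 meiotic recombination genes (median 0.07) 2 were higher, Stag3 (0.88), a meiotic cohesin, and Prdm9 (0.57), which sets recombination sites, and Syce2 of the synaptonemal complex was lower (-0.61). Of 8 measured Ifi200 family and inflammasome genes (median 0.06) Ifi203, a relative of Aim2, was higher (1.33) and the cytokine Il18 lower (-1.14). Of 16 interferon response genes 1 was higher and 9 lower (median -0.61), with Ifit2 at 0.44, Ifit3 at -3.00 and Rtp4 at -2.28. The part of these genes in the Aim2 result was not tested. Of 25 cilium and ependymal genes 5 were higher and 2 lower (median 0.01), with Ccdc39, which sets the axoneme repeat, at 1.97 and the radial spoke gene Rsph9 at -1.27. Of 18 glycerophosphodiester and N-acylethanolamine genes 2 were higher and 7 lower (median -0.13), with the cannabinoid receptor Cnr1 at 0.93 and the enzymes Abhd4 and Naaa at -2.52 and -2.32. Of 16 T and NK cell genes (median 0.22) Ptprc, a marker of all leukocytes, was higher (0.62), a count that was 0 without any one PomcGFP array or NesGFP array 1 or 2, and 3 without NesGFP array 3 or kiTbr2GFP array 1. Of 13 microglia and macrophage genes 7 were higher and 0 lower in PomcGFP (median 0.39), with the protease Ctss at 1.65 and the signalling adaptor Tyrobp at 1.31, and 2 to 7 genes passed when an array was left out. Averaged over that list, the arrays lay between 7.53 and 7.54 in PomcGFP and between 6.88 and 6.99 in NesGFP, and its part in the results of the 8 genes was not tested. Of the 7 genes of the miR-7 list (median -0.28) 3 were lower, including Fos (-1.18) and Klf4 (-0.83).

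In kiTbr2GFP minus tgTbr2GFP the same pathways held no gene past limma's test. For splicing and exon junction genes this was 0 of 21 (1 at an unadjusted p under 0.05, median difference 0.03), for meiotic recombination 0 of 11 (3 unadjusted, median 0.19) and for the Ifi200 family and inflammasome 0 of 8 (1 unadjusted, median 0.05). Ifi203, the third measured gene after Aim2 in the gene order, averaged 9.11 ± 0.08 in kiTbr2GFP and 9.13 ± 0.15 in tgTbr2GFP. Of 16 interferon response genes 0 passed as well (1 unadjusted, median 0.09). Counts of 0 in lists of this size are near the background of 1.12%.

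Markers of cell types that could accompany the difference between the Tbr2 lines were read in the same way. Over all genes 0.436% passed as higher and 0.684% as lower in kiTbr2GFP. The share of all genes at an unadjusted p under 0.05 is not given, so unadjusted counts, here and elsewhere, have no background beside them. Of 16 stem cell and astrocyte genes 3 were lower in kiTbr2GFP than in tgTbr2GFP and 0 higher (10 at an unadjusted p under 0.05), with a median difference of -0.39; averaged over the list, the arrays lay between 8.32 and 8.49 in kiTbr2GFP and between 8.71 and 8.88 in tgTbr2GFP. They included S100b (-1.11, limma adjusted p = 0.0292) and Hopx (-0.66, limma adjusted p = 0.0219). The count was 0 without any one of the kiTbr2GFP arrays and 1 without tgTbr2GFP array 1 or 3. Of 14 intermediate progenitor genes Mfap4 was higher (0.70, limma adjusted p = 0.0109), with 6 at an unadjusted p under 0.05 and a median of 0.19. Averaged over that list, the arrays lay between 8.88 and 9.01 in kiTbr2GFP and between 8.53 and 8.78 in tgTbr2GFP. Of 18 granule neuron genes C1ql3, a synaptic adhesion protein, was lower (-0.94, limma adjusted p = 0.0426), with 5 at an unadjusted p under 0.05 and a median of -0.07, and the list averages lay between 9.26 and 9.39 in kiTbr2GFP and between 9.44 and 9.52 in tgTbr2GFP. The averages of all 3 lists thus did not overlap between the Tbr2 lines. That was not particular to these lists, as the cilium and ependymal, sex-linked and meiotic recombination averages did not overlap either. For meiotic recombination they lay between 7.38 and 7.44 in kiTbr2GFP and between 7.16 and 7.32 in tgTbr2GFP. The progenitor count was 0 without kiTbr2GFP array 3 and 2 without NesGFP array 1 or 2 or tgTbr2GFP array 1. The granule neuron count was 0 without kiTbr2GFP array 2 or 3, either PomcGFP array, or tgTbr2GFP array 1 or 3, and 2 without NesGFP array 2 or 3 or tgTbr2GFP array 2. Of 13 microglia and macrophage genes 0 passed (1 unadjusted, median -0.06), and of 3 measured erythroid genes 0 passed (0 unadjusted, median 0.09). The part of these markers in the differences of the 8 genes was not tested.

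Genes known to differ among laboratory mouse strains in level or copy number were taken as a list of 25, of which 9 were measured. None of the 9 passed in kiTbr2GFP minus tgTbr2GFP (limma, 1 at an unadjusted p under 0.05), near the background of 1.12% of all genes. Their median difference was 0.04 and the range -0.23 to 0.39. In PomcGFP minus NesGFP 2 were higher and 6 lower (limma, median -0.54), against 15.9% of all genes higher and 24.0% lower. Among those that passed were Gabra2, a GABA receptor subunit, at 2.69 and Glo1, which detoxifies methylglyoxal, at -1.10. PomcGFP and NesGFP also differ in stage markers such as Gfap, and strain and stage cannot be told apart here.

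To see whether a difference extended along the chromosome, the 10 nearest measured genes on each side of each of the 8 genes were read, 160 in all, by the gene order of RefSeq. In kiTbr2GFP minus tgTbr2GFP 2 of them passed limma's test, 1 higher and 1 lower, near the background of 1.12%, and 13 had an unadjusted p under 0.05. The median absolute difference of the neighbours was 0.11, against 0.10 over all genes, and 1 of the 160, Pde1a near Cwc22, differed by more than 1 (-1.09, limma adjusted p = 0.11). The neighbours that passed were Zfp951, a zinc finger gene in ninth place before Hfm1, with 6.39 ± 0.10 in kiTbr2GFP and 5.65 ± 0.09 in tgTbr2GFP, and Slitrk2 near Cdr1os. The total was 1 without any one kiTbr2GFP array, either PomcGFP array, or tgTbr2GFP array 1 or 3, and in each of these fits no neighbour of Cdr1os passed; it was 4 without NesGFP array 1 or 3. Slitrk2, a synaptic membrane protein, averaged 7.31 ± 0.13 in kiTbr2GFP and 8.03 ± 0.13 in tgTbr2GFP. Of the 20 nearest genes of Eomes, where the knock-in allele lies, 0 passed (limma; 1 at an unadjusted p under 0.05), with differences of -0.48 to 0.19.

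**Figure D5:**
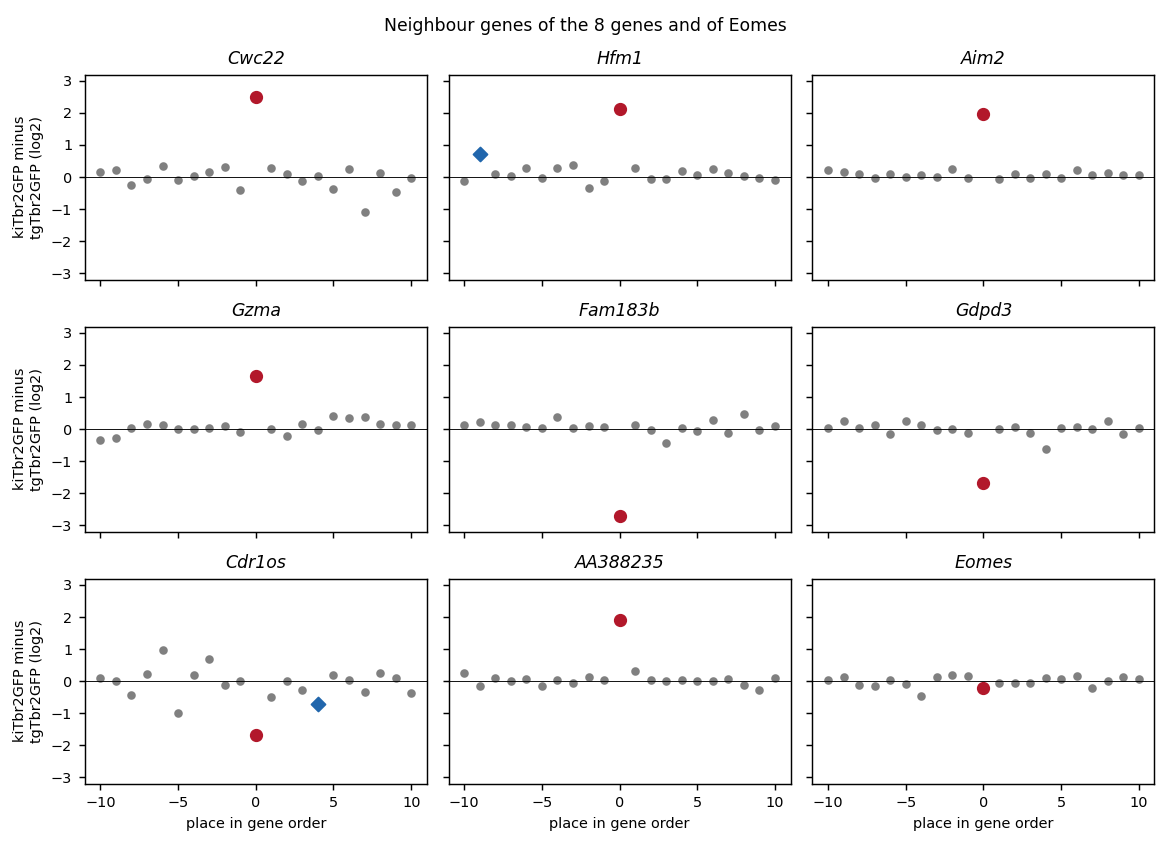
Difference between kiTbr2GFP and tgTbr2GFP (log2, vertical axes) for the 10 nearest measured genes on each side (horizontal axes, place in gene order) of each of the 8 genes and of Eomes; the centre gene is red, neighbours past limma's test are blue diamonds and other neighbours grey. The 8 centre genes were chosen for a large difference, so their distance from their neighbours follows from that choice. Most neighbours lie near 0, and Eomes lies near 0 with its neighbours.

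Across the 11 arrays the genes fell into the sets that the line means define. Cwc22, Hfm1, Aim2 and Gzma correlated with each other at r of 0.77 to 0.90 (6 pairs), and Fam183b with Gdpd3 at 0.89, while AA388235 correlated with these at -0.87 and -0.89. The lines themselves make these values, as all pairs share the same arrays and line means. With the line means removed, the 6 pairs ranged from -0.63 to 0.53 and the 3 pairs from -0.32 to 0.02.

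The genes whose profile over the 11 arrays was most like that of a gene of the group are named by Pearson's r, as a description. They were Neil3 (0.98) and Brip1 (0.975) for Cwc22, Pxdn (0.95) and Pign (0.94) for Hfm1, Yeats2 (0.93) and Zranb3 (0.92) for Aim2, and Dna2 (0.96) and Troap (0.89) for Gzma. For Fam183b they were Gm14403 (0.93) and Gabrg3 (0.93), for Gdpd3 Gm14403 (0.94) and Cfap54 (0.93), for Cdr1os Erc2 (0.95) and Csmd3 (0.95), and for AA388235 Sh2b1 (0.89) and Fam160b1 (0.85). Gm14403 was thus nearest to both genes that were high in tgTbr2GFP, and it differed by -1.81 between kiTbr2GFP and tgTbr2GFP. The line means enter these r values, and the group was chosen for differences between the same Tbr2 arrays. A like profile with a difference of the same sign follows in part from that choice, and nothing is read from it. Cfap54, which was not in the cilium list, differed by -1.03 between kiTbr2GFP and tgTbr2GFP. In that list 0 of 25 measured genes passed limma's test in kiTbr2GFP minus tgTbr2GFP.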

How the data were processed

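The authors' deposited table holds 1 log2 value per probe set and array, made with RMA (background correction, normalization between arrays, summary of probes) with oligo, as the tools named per the submitters' processing notes show; versions are not given in the sources used here. The log2 scale was taken from RMA and the range of the values. Of 28858 probe sets 21789 had 1 gene symbol (21698 matched RefSeq by Entrez number, 0 symbols updated), 1621 carried more than 1 symbol and 5448 had none in the annotation; only the first kind was used. A probe set was kept above the 25th percentile of the array on at least 2 arrays, and the one with the highest mean stood for a gene.

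limma 3.58.1 (R 4.3.3) fitted 1 mean per line over the 11 arrays (7 residual and 4.22 prior degrees of freedom), so that the spread of the 2 PomcGFP arrays was pooled with the others. Tests were two-sided, with Benjamini-Hochberg adjustment over 16527 genes and a threshold of 0.05. The script was tested on simulated data. The genes of the group, the 15 gene lists and the alternatives were chosen with earlier results of these data known. Besides the 8 genes the text names up to 2 genes per list and direction past the test, defining markers, neighbours past the test, sex-linked genes and the 2 most alike genes by r; Pde1a, Ttr, Rsph9, Ifi203 in kiTbr2GFP minus tgTbr2GFP, Uty and the miR-7 genes were picked after their values were seen. Alternatives were other filters, the mean of probe sets, cyclic loess, median centring, a trend with a robust prior, array weights, a replicate block, the compared lines alone and leaving out each array. The number of arrays limits the precision. Figures were drawn with matplotlib 3.10.9 under Python 3.11.15.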

Additional observations from a re-analysis of the deposited data

How the results depend on the processing

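The differences of the 8 genes between kiTbr2GFP and tgTbr2GFP kept their sign under every alternative run on them. The genes were chosen for large differences in this contrast, so the kept sign follows from that choice and is no support. Gzma was removed by the stricter filter. Leaving out each array gave, for example, 2.42 to 2.67 for Cwc22, -2.93 to -2.55 for Fam183b and 1.58 to 2.23 for Aim2. The number of genes past the test in that comparison was 185; it was 1393 with array weights, where 21 of the 160 neighbour genes, 7 stem cell and astrocyte genes, 4 T and NK cell genes, 6 progenitor genes and 6 granule neuron genes passed, and 68 to 261 when an array was left out. It was lowest without the first kiTbr2GFP array (68), and also fell by more than 1.5 times without kiTbr2GFP array 2 (85) or 3 (69) and without tgTbr2GFP array 1 (77) or 3 (80); the cause was not tested. In PomcGFP minus NesGFP 6591 genes passed (4453 to 7377 leaving out an array, 4482 with these lines alone), and Gzma, which passed under no setting, changed sign with cyclic loess (-0.091) and without the second NesGFP array (-0.031); leaving out each array gave -0.031 to 0.151. The share of higher calls in kiTbr2GFP minus tgTbr2GFP was 38.9%, and 59.4% without kiTbr2GFP array 3. In PomcGFP minus NesGFP it was 39.8%, 49.6% after cyclic loess and 49.8% with median centring. The replicate numbers are shared between lines. Deviations of same-numbered arrays correlated at r of -0.11 to 0.26 (15 pairs, median 0.04, 4 of them over 0.1). For arrays of different numbers r was -0.25 to 0.12 (30 pairs, median -0.02). The 25th percentile rose with the replicate number in every line, and whether same-numbered arrays share a batch is not given. With the replicate block 147 genes passed in kiTbr2GFP minus tgTbr2GFP and 7124 in PomcGFP minus NesGFP. Values below the 25th percentile, as for Gzma and Hfm1 outside the lines where they were high, limit the size of a difference.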
